A study of Mus musculus with 147 samples.

Results

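The 10 genes described here are the listed markers of large peritoneal macrophages and the retinoic acid genes expressed with them: Gata6, Prg4, Serpinb2, Alox15, Icam2, Selp, F5, Cyp26a1, Rarb and Rxra. All 10 were found, by Ensembl identifier, among the 50686 genes of both deposited count tables. The rule that lists them by symbol uses no measured value, but it was written with earlier results of these data known. Levels are given as CPM, a gene's count scaled by its library's total, and fold changes on the log2 scale with a standard error (SE). The SE was not estimated directly by the model. It was worked back from the edgeR fold change, which a prior count shrinks, and its test statistic, so it is approximate. Intervals on fold changes were built from this SE by a normal approximation.

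The study sorted macrophages by fluorescence from mice under 2 nutritional challenges. In the first, 6 tissue macrophage populations and monocytes were taken from mice that had fasted 12 h and from mice that had then been given chow again for 2 h (110 libraries, 400 cells each). In the second, islet macrophages (400 cells), peritoneal macrophages (100000 cells) and microglia (5000 cells) were taken from mice on normal chow, on a high-fat diet for 8 weeks, or on that diet with streptozotocin (STZ) given at week 4, which destroys insulin-producing islet cells and causes hyperglycaemia (37 libraries). The labels give no strain, sex, age or genotype, and no transgene or deletion. Peritoneal macrophages made up 8 fasted, 8 refed, 5 normal diet, 5 STZ and 4 high-fat diet libraries. Whether libraries of a group came from separate mice is not stated, so p-values measure the spread between these libraries. The titles repeat the same replicate numbers across populations, so populations may share mice. No comparison of populations paired libraries by mouse.

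Large peritoneal macrophages are the main resident phagocytes of the peritoneal cavity and are known to depend on the zinc finger transcription factor GATA6. Retinoic acid, made from vitamin A by retinaldehyde dehydrogenases and supplied in part by the omentum, is known to induce Gata6 in these cells. It acts through retinoic acid receptors (RARs) paired with retinoid X receptors (RXRs), which bind direct repeats of a short core motif, and it is cleared by enzymes of the CYP26 family. Small peritoneal macrophages, a second population that derives from monocytes, carry little Gata6 and more MHC class II.

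Rarb, which encodes a retinoic acid receptor, and Cyp26a1, which encodes an enzyme that clears retinoic acid, are textbook targets of RAR-RXR pairs, so their start regions are shown first. Both windows, the 250 bases before a RefSeq start on GRCm38.p6, hold the direct repeat with a 5-base spacer that RAR-RXR pairs bind, known as DR5, printed in capitals. It was searched on both strands. The Rarb window is chr14:16575477-16575726 (minus strand), with the repeat 53 to 37 bases before the start. The Cyp26a1 window is chr19:37697558-37697807 (plus strand), with the repeat on the opposite strand 32 to 16 bases before the start.
Rarb: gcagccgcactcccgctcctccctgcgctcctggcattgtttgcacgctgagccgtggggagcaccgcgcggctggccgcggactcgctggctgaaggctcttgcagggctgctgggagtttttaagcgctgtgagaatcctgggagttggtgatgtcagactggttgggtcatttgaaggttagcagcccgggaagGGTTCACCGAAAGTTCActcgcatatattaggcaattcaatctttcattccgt
Cyp26a1: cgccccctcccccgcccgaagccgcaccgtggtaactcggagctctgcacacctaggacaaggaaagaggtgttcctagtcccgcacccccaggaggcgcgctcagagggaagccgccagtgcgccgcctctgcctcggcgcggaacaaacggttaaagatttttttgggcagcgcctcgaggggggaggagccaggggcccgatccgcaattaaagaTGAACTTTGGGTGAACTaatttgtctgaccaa
Of 32851 windows of this length, 29 (0.0883%) held such a repeat. None was found in the windows of Serpinb2, Selp, F5 or Rxra, which says only that these letters are not there. Direct repeats with a 1-base or 2-base spacer were also searched, and none was found in any of these windows or in those printed. The letters GATAA were found only in the Serpinb2 window chr1:107511260-107511509, 40 to 36 bases before the start. Of all windows searched, 22.6% held them. A match is a description of the sequence and was not tied to any measurement of binding.

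All 10 are protein-coding genes, with positions on GRCm38 from GENCODE M21. Prg4 (chr1:150449412-150466165), Serpinb2 (chr1:107511423-107535478), Selp (chr1:164115264-164150026) and F5 (chr1:164151838-164220277) are on chromosome 1, where 1811 bases separate the end of Selp from the start of F5. Alox15 (chr11:70344152-70352031) and Icam2 (chr11:106377656-106388075) are on chromosome 11, and Rxra (chr2:27676440-27762957), Rarb (chr14:16430839-16819156), Cyp26a1 (chr19:37697798-37701536) and Gata6 (chr18:11052064-11085635) stand alone. Exons of Gata6, Prg4, Selp, F5 and Rarb overlap a gene on the other strand, and those of Serpinb2 overlap Serpinb10, so reads there cannot be assigned with certainty.

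Library totals ran from 7.92 to 27.3 M counts with refeeding and from 11.3 to 34.5 M with diet. The peritoneal label was checked on markers in fasted mice. Timd4 averaged 527 CPM and Vsig4 827 CPM there, and the summed level of 7 peritoneal markers ran from 4927 to 7296 CPM. Kupffer cells, which held 501 CPM of Timd4 and 2949 CPM of Vsig4, reached 4099 to 8848 CPM of the same sum, and the other 5 populations 570 to 1976 CPM. In 4 refed libraries, 2 of islet macrophages and 2 of Kupffer cells, the description names fasting only. Without them 0 of the 10 genes were called after refeeding in either population, as with them.

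In fasted mice, 7 of the 10 genes were higher in peritoneal macrophages than in each of the 6 other populations: Prg4, Alox15, Serpinb2, Icam2, Selp, F5 and Cyp26a1. A gene was counted when its log2 difference from every one of the 6 reached 1 and each had an adjusted p below 0.05 (edgeR quasi-likelihood test, Benjamini-Hochberg over all 16114 genes tested). Over all tested genes, 0.67% met the same rule. Per kilobase of exon, the fasted peritoneal means were 4468 CPM for Alox15, 3126 for Prg4, 807 for Serpinb2, 494 for Icam2, 262 for Selp and 214 for F5, against 11.6 for Cyp26a1, 9.10 for Rxra, 7.83 for Rarb and 4.88 for Gata6. The effector and surface genes stood far above Gata6 and the retinoid genes in level per length.

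Gata6, the transcription factor itself, averaged 31.7 ± 22.1 CPM (SD, n = 8) in fasted peritoneal macrophages, with a lowest value of 13.7, a median of 27.4 and a highest of 83.1. It was at 0 in 96 libraries from other populations, and the highest value outside the peritoneum was 9.28 CPM, in a fasted colonic library. No library of another population reached the lowest fasted peritoneal value. Fasted adipose and islet macrophages had no Gata6 count at all, which puts the fasted peritoneal level at least 1594-fold and 1047-fold higher, with 3 counts over the group as the floor. Against colonic macrophages the log2 difference was 3.26 ± 1.29 (SE) with an adjusted p of 0.0683 by edgeR, so Gata6 missed the count through that pair alone. With limma-voom Gata6 and Rarb met the rule and Alox15 did not, with 288 genes meeting it in all. The other member of the GATA family that stood out was Gata4, at 61.8 CPM in fasted Kupffer cells and 13.3 CPM in colonic macrophages, while its peritoneal mean rounded to 0.

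Prg4, which encodes the lubricating glycoprotein lubricin, averaged 13379 ± 1037 CPM (SD, n = 8) in fasted peritoneal macrophages and at most 14.9 CPM in the other fasted populations. Alox15, the lipoxygenase that oxygenates arachidonic and linoleic acid, averaged 10964 ± 693 CPM (SD, n = 8) there. Serpinb2 (plasminogen activator inhibitor 2) averaged 1895 ± 386 CPM and F5 (coagulation factor V) 1592 ± 213 CPM. Colonic macrophages were second in rank for these last 3, at 358 ± 202 CPM for Alox15, 186 ± 128 CPM for Serpinb2 and 177 ± 110 CPM for F5 (SD, n = 8 each), well below the peritoneal libraries without overlap. Selp, encoding the adhesion molecule P-selectin, averaged 1155 ± 108.4 CPM in the peritoneal libraries and at most 1.65 CPM elsewhere. Sele, which encodes E-selectin, was at 0 in every fasted and refed peritoneal library. Icam2, an adhesion ligand for leukocyte integrins, averaged 940 ± 93.3 CPM, ahead of Kupffer cells at 63.7 ± 18.2 CPM (n = 6). Its difference from Kupffer cells was 3.90 ± 0.81 on the log2 scale.

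**Figure D1:**
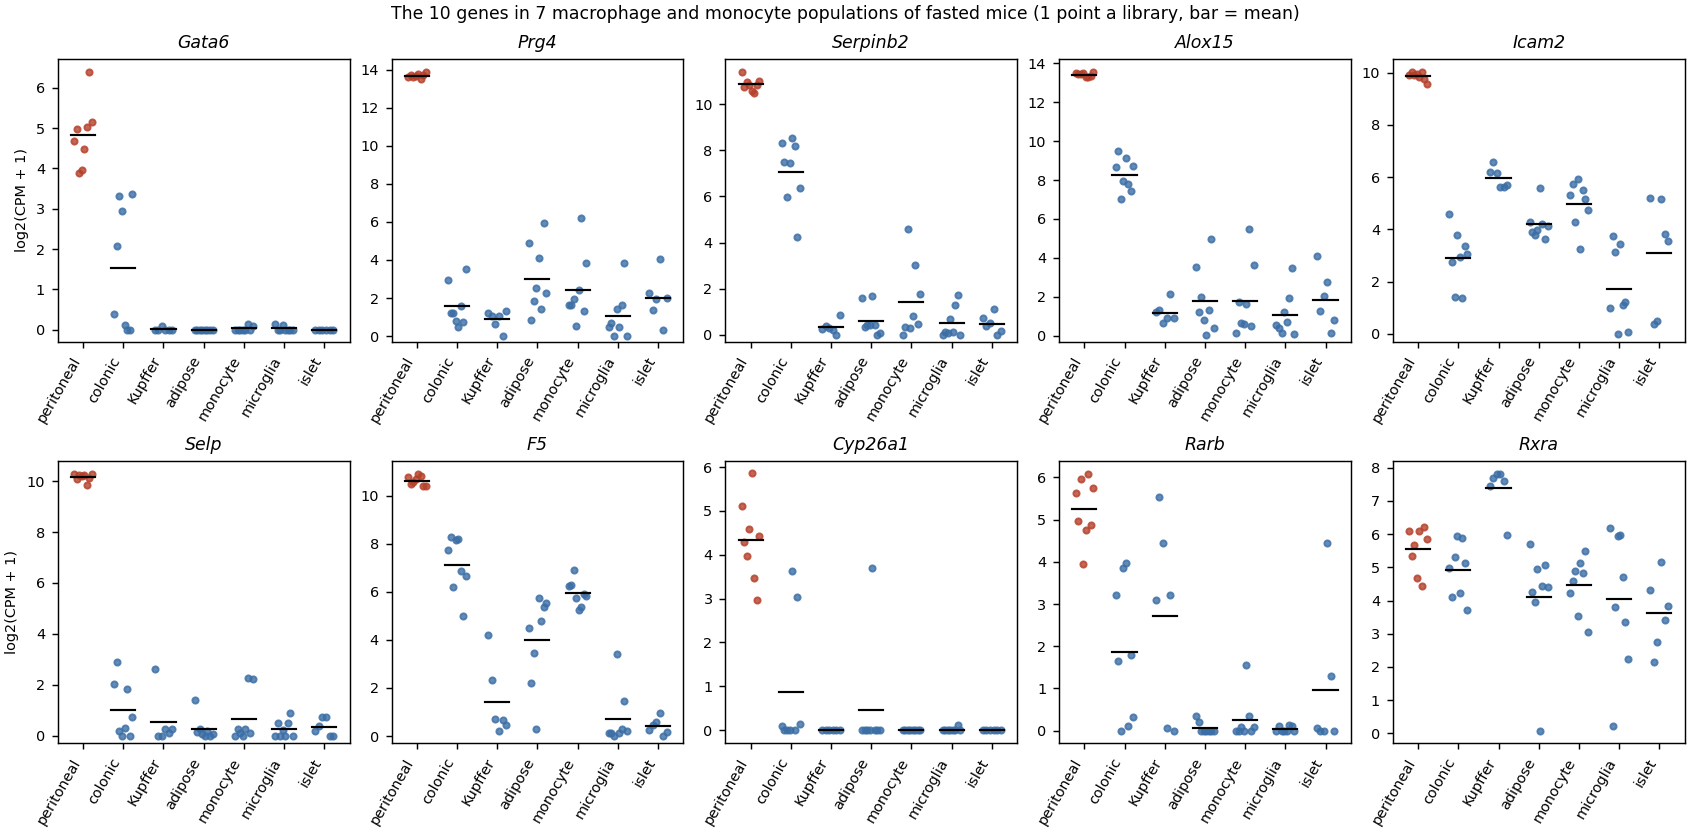
Levels of the 10 genes in libraries of fasted mice, as log2(CPM + 1) on the vertical axis, by population on the horizontal axis. Each point is 1 library and each bar a mean. Peritoneal points are red and lie above all others for 7 genes. They overlap colonic and adipose points for Cyp26a1, and Kupffer, islet and colonic points for Rarb. For Rxra they lie mostly below the Kupffer points.

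The retinoid genes split. Cyp26a1, the retinoic acid hydroxylase, averaged 22.98 ± 15.9 CPM in fasted peritoneal macrophages, between 6.84 and 56.8 CPM, and had no count in fasted monocytes, islet macrophages or Kupffer cells. Its smallest called difference was from colonic macrophages, 5.22 ± 1.60 (adjusted p = 0.0162, edgeR). Rarb averaged 41.2 ± 19.03 CPM in peritoneal macrophages and 13.6 ± 17.2 CPM in Kupffer cells, where single libraries ran from 0 to 45.2 CPM. Its difference was 1.72 ± 1.41 from Kupffer cells (adjusted p = 0.532) and 3.15 ± 1.36 from colonic macrophages (adjusted p = 0.0938). Neither passed the test. Rxra, the shared partner of many nuclear receptors, was highest in Kupffer cells at 180 ± 60.8 CPM, against 49.7 ± 19.8 CPM in peritoneal macrophages (log2 difference -1.81 ± 0.68, adjusted p = 0.0622). It did not pass the test in any of the 6 pairs, and the levels in colonic macrophages (33.5 ± 18.4 CPM) and microglia (30.5 ± 29.2 CPM) overlapped the peritoneal ones.

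Among the other retinoid genes, Rarg averaged 103.2 CPM and Rara 97.9 CPM in fasted peritoneal macrophages, while Rxrb was at 17.02 and Rxrg at 2.9 CPM. Monocytes averaged 376 CPM of Rara. The retinaldehyde dehydrogenase Aldh1a2 averaged 27.5 CPM in peritoneal and 96.2 CPM in adipose tissue macrophages. Dhrs3, a retinaldehyde reductase, was the most abundant of the listed retinoid enzymes at 633 CPM.

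On normal chow, with peritoneal macrophages set against islet macrophages and microglia (5, 4 and 4 libraries), 8 of the 10 genes were higher in peritoneal macrophages in both pairs. Over all 13667 genes tested, 801 (5.86%) met that rule. Gata6 was among the 8, with levels of 25.9 to 30.8 CPM and no count in any islet or microglial library. Rarb was too, at 37.96 ± 20.2 CPM (n = 5). Cyp26a1, at 11.8 ± 7.33 CPM, missed the threshold against islet macrophages (adjusted p = 0.0726) and microglia (adjusted p = 0.0523). Rxra was higher than in islet macrophages by 2.14 ± 0.57 (adjusted p = 0.0125) and differed from microglia by 0.43 ± 0.54 (adjusted p = 0.631). The starting number of cells differed between these populations, and its part in the differences was not tested.

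Likeness was measured by Pearson's r over the 23 group means of log2(CPM + 1), among 12088 genes with a group mean of at least 10 CPM. The 5 genes most like Gata6 were Gm16587 (r = 0.989), Naip3 (0.975), Cldn10 (0.965), Platr26 (0.964) and Prss35 (0.961). Gm16587 lies on the other strand of Selp, and whether reads were counted by strand is not given in the sources used here, so its counts and those of Selp cannot be told apart with certainty. Selp ranked 11th, Alox15 20th, Serpinb2 23rd, Prg4 46th, F5 69th, Rarb 95th, Icam2 99th, Cyp26a1 280th and Rxra 2725th. The 5 genes most like Rxra were Tnk2 (0.879), Hyal2 (0.856), Rab28 (0.849), Tanc1 (0.839) and B430306N03Rik (0.837). These values rest on 23 group means, several of them from the same population, and Gata6 is near 0 in most of them.

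Refeeding changed none of the 10 genes past the threshold in peritoneal macrophages, where all 10 were tested (edgeR, adjusted p below 0.05), against 49 of 11331 genes (0.432%) called overall. At an unadjusted p below 0.05, which 10.99% of all genes had, there were 4: Rarb, Serpinb2, F5 and Prg4. By other tools the count was 3 with DESeq2 (Rarb, Serpinb2 and F5) and 2 with limma-voom (Rarb and Serpinb2). Both tools also called more of all genes tested, as given at the end. The refed and fasted libraries overlapped for all 10 genes, where 0.305% of 10830 genes did not overlap.

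Rarb was the gene of largest difference. Fasted libraries ran from 14.5 CPM through a median of 39.5 to 67.2, and refed libraries from 64.3 through 92.6 to 118.7. The ranges met where the highest fasted library, at 67.2 CPM, lay above the 2 lowest refed libraries, at 64.3 and 66.1 CPM. Its log2 change was 1.17 ± 0.29 with an adjusted p of 0.0848, and it was between 1.05 and 1.35 when each of the 16 libraries was left out in turn. Rara and Rarg, receptors of the same family, went the same way, at 0.65 ± 0.19 (adjusted p = 0.154) and 0.38 ± 0.12 (adjusted p = 0.176). Of the 6 receptor genes 5 were higher after refeeding and 0 were called, with a median log2 change of 0.53 against -0.00379 for all genes tested. Rxra was 49.7 ± 19.8 CPM fasted and 71.03 ± 25.6 CPM refed, a change of 0.41 ± 0.27 (adjusted p = 0.661).

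Serpinb2 fasted libraries held 1445 CPM at the lowest, 1824 at the median and 2686 at the highest, and refed libraries 1657, 3105 and 6663. Refed libraries 4, 8 and 9, at 6663, 6630 and 4789 CPM, lay far above every fasted library, while refed libraries 1, 5 and 6 lay within the fasted range. The log2 change was 0.81 ± 0.22 (adjusted p = 0.117). Without fasted library 1 it was 0.94 with an adjusted p of 0.0440, past the threshold. F5 averaged 1592 ± 213 CPM fasted and 1283 ± 151 CPM refed, with a log2 change of -0.30 ± 0.09 (adjusted p = 0.149). Prg4 differed by -0.21 ± 0.09 (adjusted p = 0.378).

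Gata6 averaged 31.3 ± 17.1 CPM in refed libraries. Its change of -0.10 ± 0.35 had an approximate 95% interval, built from its SE, of -0.79 to 0.59. The interval for Cyp26a1 was -1.02 to 0.73. Those of Alox15 (-0.22 to 0.08), Selp (-0.28 to 0.07) and Icam2 (-0.07 to 0.35) were narrower. The list of 26 other large peritoneal macrophage genes held 1 called gene among 25 tested, where 0.432% of all genes were called. It was Bhlhe40, a transcriptional repressor, which rose by 0.94 ± 0.16 (adjusted p = 0.0186, edgeR). Mertk, the receptor for apoptotic cells, is not on that list but among the markers used for all macrophages. It fell by 1.00 ± 0.14 (adjusted p = 0.00978, edgeR), from a fasted range of 142 to 227 CPM to 65.9 to 164 CPM. Small peritoneal macrophage markers had 0 called of 13 tested, and their summed level ran from 1053 to 3470 CPM in fasted and 664 to 2678 CPM in refed libraries.

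**Figure D2:**
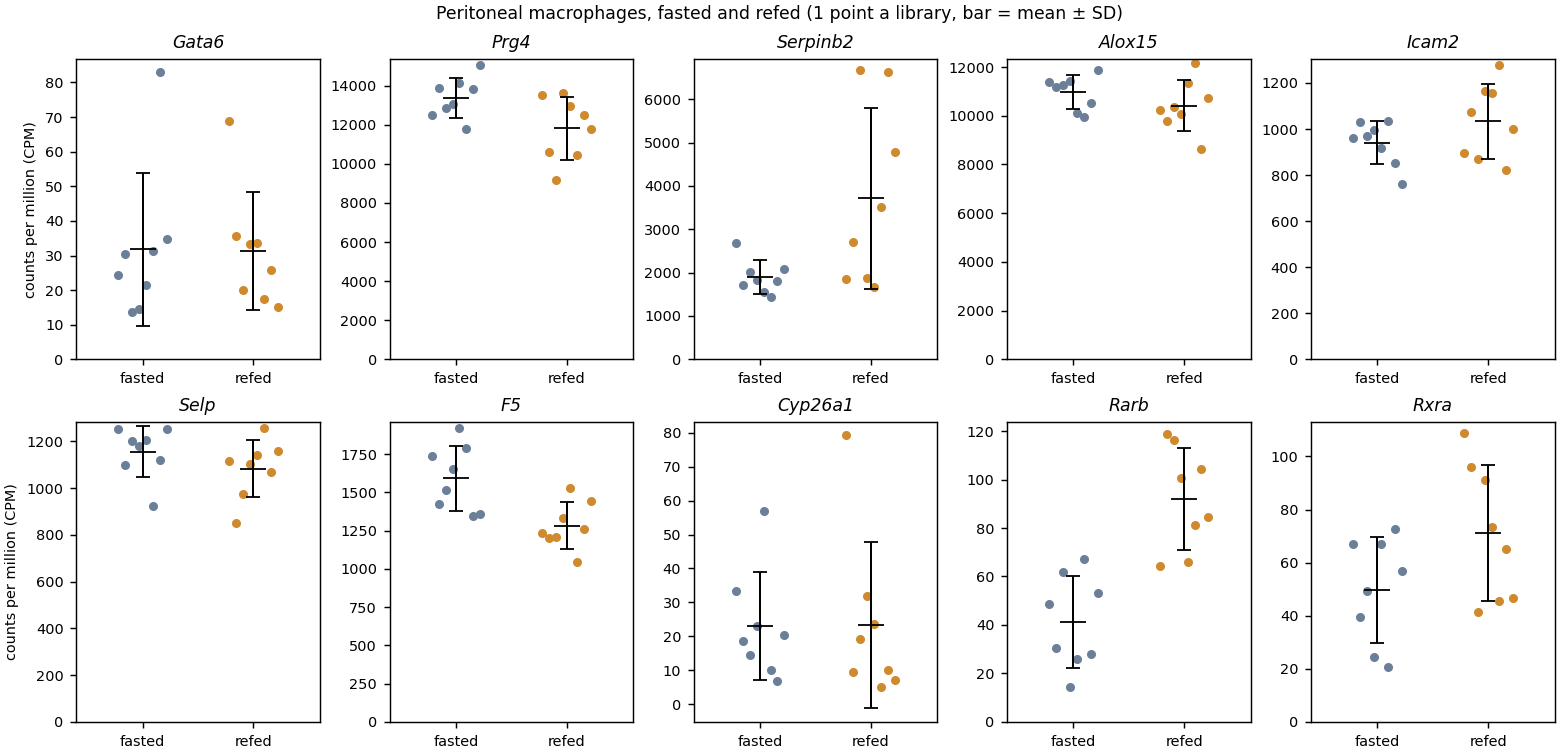
CPM of the 10 genes in peritoneal macrophages of fasted and refed mice, 8 libraries each, on axes from 0. Points are libraries and bars the mean ± SD; the Rarb groups overlap by 1 fasted and 2 refed points, and 3 refed points of Serpinb2 lie at 4789 CPM or above.

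In the other 6 populations fewer genes could be tested, because most were near 0: 6 in adipose tissue macrophages, 5 in monocytes, 4 in microglia, 8 in colonic macrophages, 4 in islet macrophages and 6 in Kupffer cells. None was called by edgeR, as for all genes in each of these populations (0%). At an unadjusted p below 0.05 there was 1 in adipose tissue macrophages (Serpinb2) and 1 in colonic macrophages (Rarb). Of all genes tested there, 5.16% and 2.59% had such a p. Adipose Serpinb2 averaged 0.699 ± 0.901 CPM fasted (n = 8) and 17.9 ± 20.3 CPM refed (n = 9), a log2 change of 5.40 ± 1.45 (adjusted p = 0.431). Single refed libraries ran from 0.166 to 56.4 CPM, so the groups overlapped. Colonic Rarb averaged 5.19 ± 6.15 CPM in fasted libraries and 2.08 ± 3.58 CPM in refed ones (adjusted p = 1.00). DESeq2 called it. The peritoneal change was then tested against the mean change of the 6 other populations. None of the 10 genes passed, against 5 of 18640 genes (0.0268%). Gata6 had no usable standard error in that fit because whole groups were at 0.

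With high-fat diet and STZ, 2 of the 10 genes fell in peritoneal macrophages relative to normal chow, Cyp26a1 and Gata6 (edgeR, adjusted p below 0.05). Overall 171 of 13225 genes (1.29%) were called, 88 higher and 83 lower. At an unadjusted p below 0.05 there were 7 of 10, all lower, where 19.6% of all genes had such a p. The median log2 change of the 10 was -0.75, against -0.0100 over all genes tested. DESeq2 called 6 of the 10 and limma-voom 5, all lower. Both tools also called more of all genes tested, as given at the end. In bulk libraries a lower level may mean fewer cells of a type or less RNA per cell, which cannot be told apart.

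Cyp26a1 was the gene of smallest p among all 13225. Its 5 normal diet libraries held 5.68, 9.02, 24.3, 8.19 and 11.9 CPM. The 4 high-fat libraries held 0.142, 0.251, 0 and 2.10 CPM, and of the 5 STZ libraries 4 were at 0 and 1 at 0.122 CPM. No treated library reached the lowest chow library. In summed counts these were 906, 38 and 2, a level 18.97-fold lower on high-fat diet (13.7 to 27.0) and 453-fold lower with STZ (125 to 3742), as exact intervals that cover counting error only. High-fat library 5 held 32 of the 38 high-fat counts. Without it, a setting chosen after seeing the data, the level on high-fat diet was 90.6-fold lower (41.5 to 248), and leaving out any other library of that pair gave 13.9-fold to 21.2-fold. STZ library 5 held both STZ counts, and without it the level was at least 238-fold lower, with 3 counts over the group as the floor. The fitted log2 change with STZ was -9.11 ± 0.83 with an adjusted p of 0.000711, and the adjusted p was at most 0.00729 with any 1 of the 10 libraries left out. Since 4 STZ libraries are at 0, the fitted size and its SE depend on the prior count and give no bound. On high-fat diet alone it was -4.65 ± 0.65, the smallest p of all genes in that contrast too, with an adjusted p of 0.0947. That p was 0.00238 without chow library 5 and 0.0283 without high-fat library 5.

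Gata6 held 30.2, 28.03, 25.9, 29.2 and 30.8 CPM on normal chow. High-fat diet libraries held 19.3, 24.9, 25.4 and 24.8 CPM. STZ libraries held 20.7, 15.9, 7.91, 13.3 and 5.86 CPM. Both treated groups lay wholly below the chow libraries. The STZ change was -1.42 ± 0.30 (adjusted p = 0.0419), lower in all 5 cohorts. The call rests on few libraries, as seen when each was left out alone. The adjusted p rose above the threshold, to at most 0.127, without chow library 1, 3, 4 or 5 or STZ library 3, 4 or 5. The change stayed between -1.72 and -1.17. Chow library 3 and STZ library 3 are the only libraries of cohort 3, so leaving out either amounts to leaving out both. Scaling by library totals gave -1.26 with an adjusted p of 0.0618. On high-fat diet alone the change was -0.45 ± 0.32 (adjusted p = 0.989).

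The surface and effector genes had negative changes with STZ but did not pass the test. Serpinb2 held 2492, 1604, 1721, 2238 and 2480 CPM on chow and 2259, 1363, 907, 1333 and 1045 CPM with STZ (log2 change -0.83 ± 0.22, adjusted p = 0.0800). F5 held 1372, 1498, 779, 2029 and 2082 CPM on chow and 1181, 1214, 737, 793 and 758 CPM with STZ (-0.82 ± 0.23, adjusted p = 0.0916). Chow library 3, the lowest of its group for F5, was the highest for Icam2. This library stood apart as a whole. Its 10 most abundant genes held 27.3% of its counts, against 19.1 to 22.5% in the other chow libraries. It had 16408 genes detected, against 17353 to 18305. Icam2 held 1034, 1129, 1921, 1134 and 1071 CPM on chow and 837, 893, 729, 858 and 694 CPM with STZ, without overlap (-0.77 ± 0.23, adjusted p = 0.113). Without chow library 3 its change was -0.46 at an adjusted p of 0.0408 (edgeR), and without STZ library 3 it was -0.46 at 0.0410. Cohort 3 held no high-fat library, so when either is left out the other informs no contrast. Both fits therefore amount to leaving out cohort 3 and are not separate checks. Selp differed by -0.72 ± 0.27 (adjusted p = 0.174), Prg4 by -0.61 ± 0.21 (adjusted p = 0.162) and Alox15 by -0.45 ± 0.25 (adjusted p = 0.329). Alox15 spread widely with STZ, from 4653 to 13438 CPM. Rarb was 37.96 ± 20.2 CPM on chow and 36.3 ± 11.1 CPM with STZ (-0.11 ± 0.24, adjusted p = 0.813), and Rxra was 42.7 ± 17.5 and 58.7 ± 5.23 CPM (0.38 ± 0.18, adjusted p = 0.258).

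**Figure D3:**
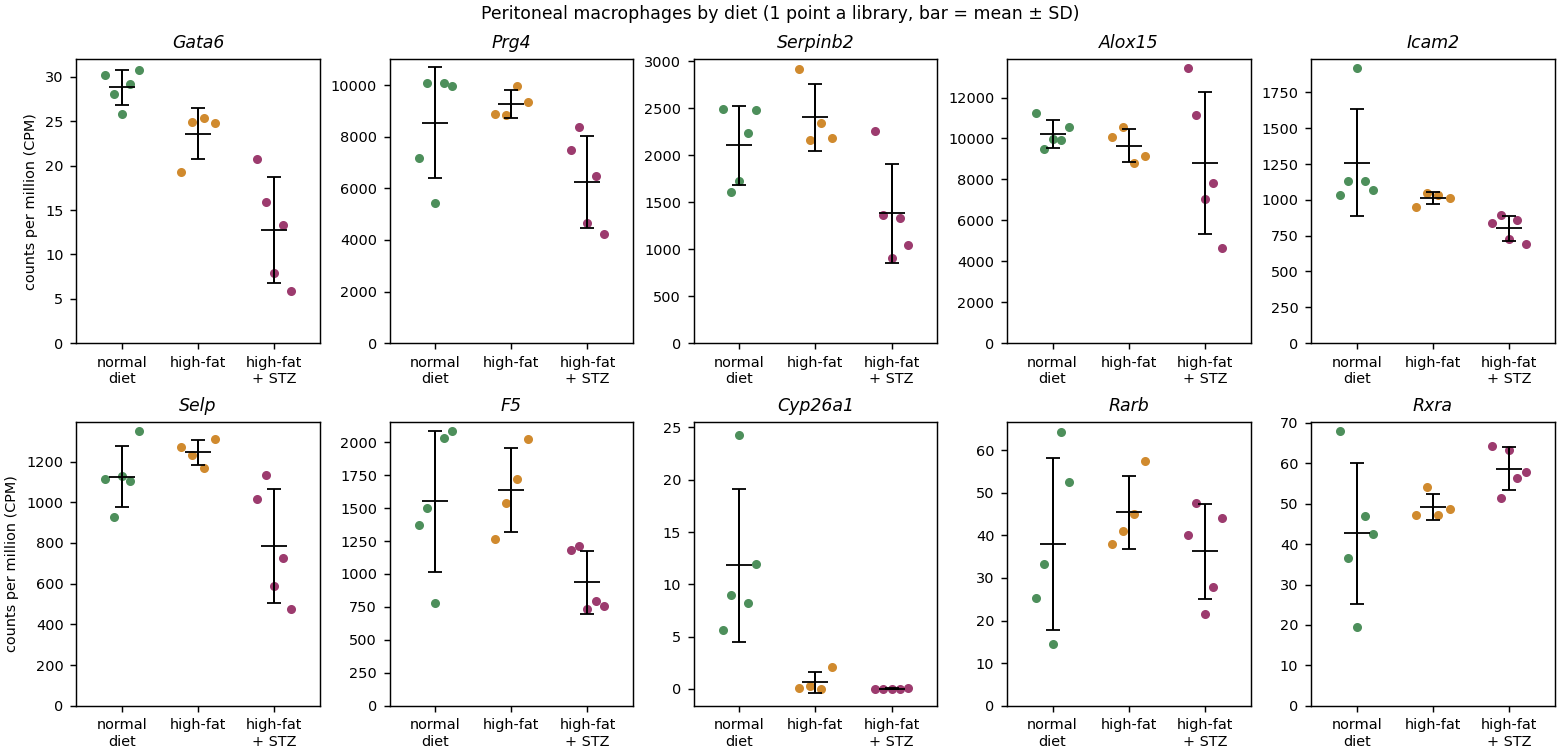
CPM of the 10 genes in peritoneal macrophages on normal diet (5 libraries), high-fat diet (4) and high-fat diet with STZ (5). Points are libraries and bars the mean ± SD; Cyp26a1 is near 0 in both treated groups, and Gata6 steps down from 25.9 to 30.8 CPM on chow to 5.86 to 20.7 CPM with STZ.

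The groups did not overlap for 3 of the 10 genes between STZ and chow (Gata6, Icam2 and Cyp26a1), where 5.18% of 11708 genes did not. For high-fat diet against chow there were 2 (Gata6 and Cyp26a1), against 2.1% of 11932 genes, and for STZ against high-fat diet 4 (Prg4, Icam2, Selp and F5), against 5.8% of 11911 genes. The comparisons share their chow or high-fat libraries, so they are not independent.

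High-fat diet alone, without STZ, gave 0 called among the 10 genes and 0 among all 13225 (0%) by edgeR. Cyp26a1 was the 1 of the 10 at an unadjusted p below 0.05, where 3.54% of all genes had such a p. DESeq2 and limma-voom each called it. For STZ against high-fat diet 0 were called (0%). At an unadjusted p below 0.05, which 8.08% of all genes had, there were 6, all lower. These were Serpinb2 (-0.83 ± 0.23, adjusted p = 0.239), Cyp26a1 (-4.46 ± 1.06, adjusted p = 0.180), Gata6 (-0.96 ± 0.32, adjusted p = 0.386), F5 (-0.72 ± 0.24, adjusted p = 0.404), Selp (-0.73 ± 0.28, adjusted p = 0.480) and Prg4 (-0.55 ± 0.23, adjusted p = 0.553). DESeq2 and limma-voom each called Serpinb2 there.

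**Figure D4:**
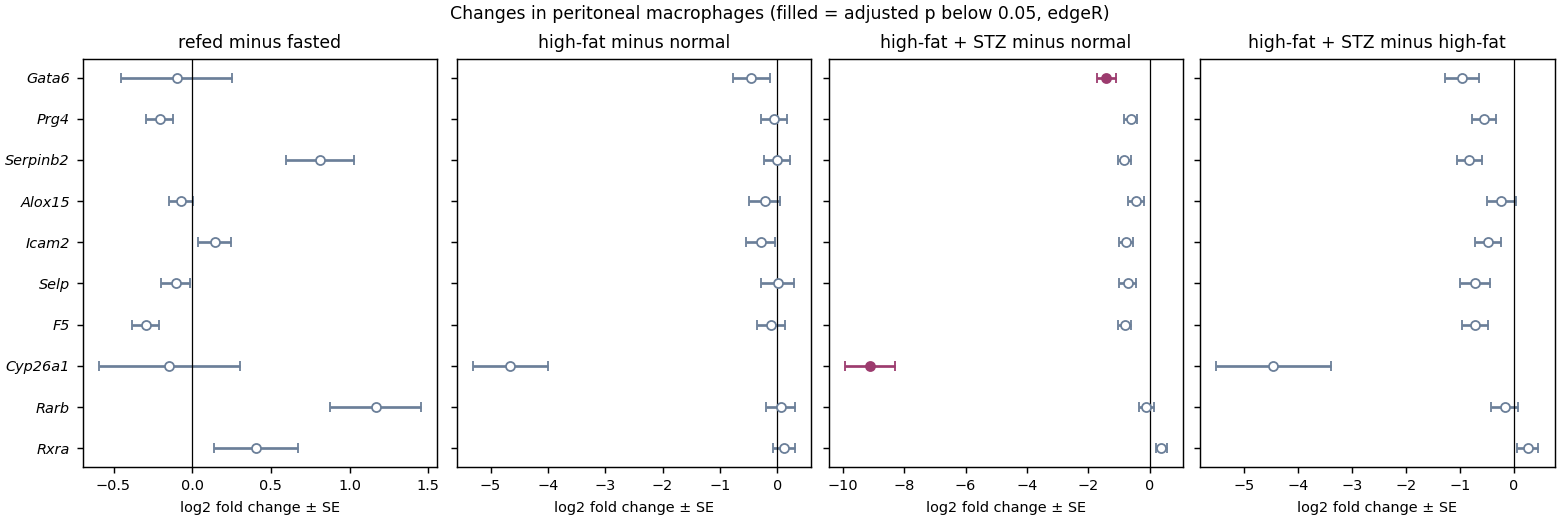
Log2 fold change ± SE of the 10 genes in peritoneal macrophages in 4 comparisons, each on its own horizontal scale. Filled points have an adjusted p below 0.05 by edgeR; these are Gata6 and Cyp26a1 in high-fat diet with STZ minus normal diet.

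Of the retinoid genes around Cyp26a1, Aldh1a2 was also called with STZ. Its libraries held 47.1, 45.4, 35.8, 59.8 and 40.1 CPM on chow, 30.5, 28.4, 23.8 and 35.5 CPM on high-fat diet, and 7.99, 27.1, 13.8, 16.9 and 18.2 CPM with STZ. The change was -1.67 ± 0.25 (adjusted p = 0.00972), and no STZ library overlapped chow. Of the 10 tested genes of retinoid transport, synthesis and clearance, 2 were lower past the test, Aldh1a2 and Cyp26a1, and 0 higher. Of all genes tested, 1.29% were called. Cyp26a1 was already counted above, so the list adds Aldh1a2 alone. None of the 6 receptor genes was called. Dhrs3 averaged 738 CPM on chow, with library 3 at 1023 CPM and the others at 637 to 703 CPM, and 577 CPM with STZ. Cyp26b1, the other retinoic acid hydroxylase present, averaged 2.3 and 2.2 CPM.

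Of 25 tested genes of the other large peritoneal macrophage list, 2 were called and lower, the GTPase-activating protein gene Garnl3 (-1.81 ± 0.34, adjusted p = 0.0285) and the tetraspanin Cd9 (-1.74 ± 0.33, adjusted p = 0.0273), and in all 2 of the 25 had a positive change. The median was -0.51. Of 17 tested small peritoneal macrophage genes 15 had a positive change, with a median of 0.63, and 1 was called, where 1.29% of all genes were. It was the mannose receptor Mrc1 (2.62 ± 0.50, adjusted p = 0.0285). The libraries did not share this evenly. Mrc1 held 24.02, 57.6, 9.46, 28.99 and 32.5 CPM on chow and 44.6, 98.95, 397, 255 and 439 CPM with STZ. Lyve1, a hyaluronan receptor in the same list, held 10.8, 63.2, 483, 353 and 677 CPM with STZ. The STZ libraries 3, 4 and 5 were the highest in both genes and the lowest in Gata6, Selp and Prg4.

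The summed small peritoneal macrophage list ran from 1983 to 6090 CPM on chow and from 2148 to 7721 CPM with STZ, and was 7721, 7611 and 6472 CPM in STZ libraries 3, 4 and 5. The summed pan-macrophage markers were 61070, 70289 and 55553 CPM in those 3 libraries and 76698 and 101320 CPM in STZ libraries 1 and 2, against 86055 to 147276 CPM on chow. The part of either list in the lower Gata6 level was not tested. B cell markers, 8 of 8 detected, summed to 28.1 to 621 CPM on chow and 7.0 to 432 CPM with STZ, with library 2 highest in all 3 groups, and their part was not tested. Of the platelet and megakaryocyte markers, cells known to carry Selp and F5, Pf4 averaged 2385 CPM on chow while Ppbp, Gp1bb, Gp6 and Tubb1 were at 0 in every chow library. Endothelial markers summed to at most 12.1 CPM in any diet library. Mesothelial markers summed to at most 2.0 CPM in any diet library.

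**Figure D5:**
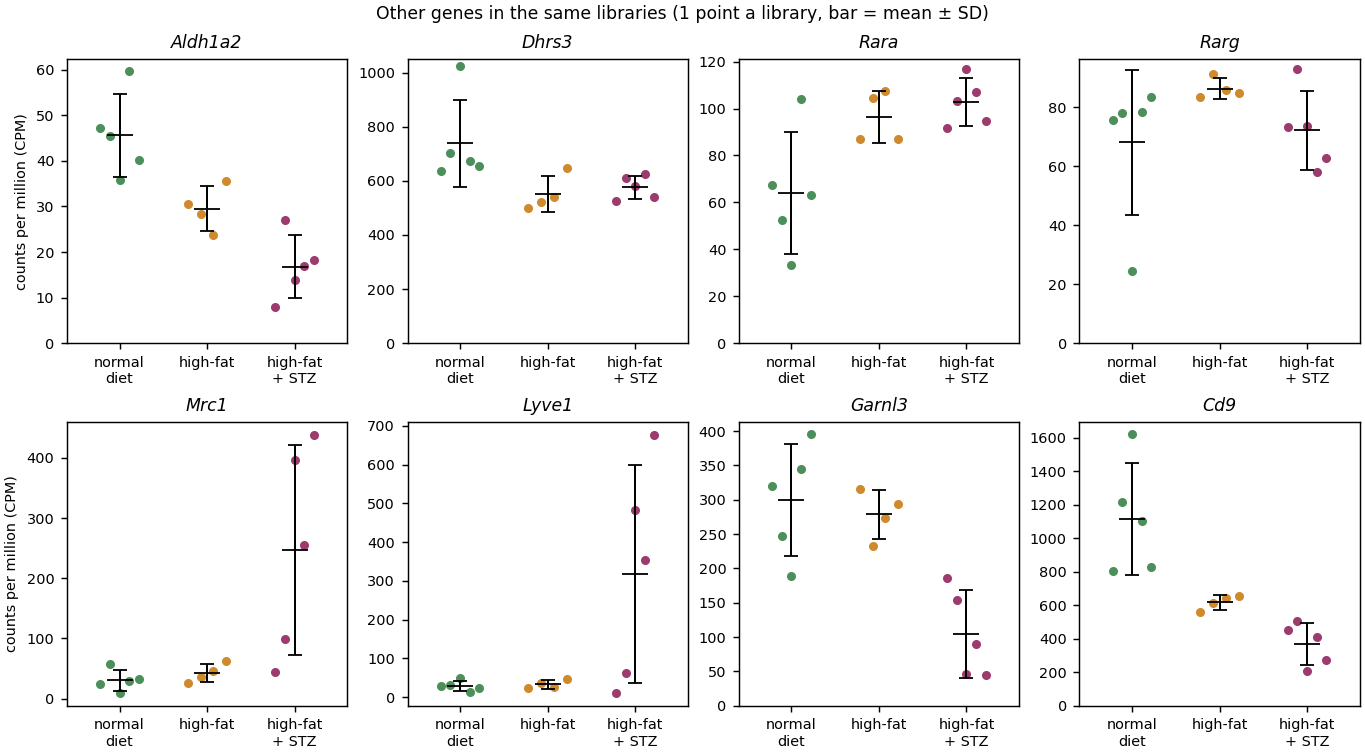
CPM of 8 other genes in the same 14 peritoneal libraries, in the same groups and with points and bars as for the 10 genes. Aldh1a2, Garnl3 and Cd9 are lower with STZ, and 3 STZ libraries hold the high values of Mrc1 and Lyve1.

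In islet macrophages 4 of the 10 genes and in microglia 4 of the 10 passed the filter on low counts, and none was called by edgeR in any of the 3 diet comparisons, as for all genes there (0%). None had an unadjusted p below 0.05, and DESeq2 and limma-voom called none either. Rxra was tested in both. It was 9.06 ± 5.61 CPM on chow (n = 4), 17.1 ± 9.20 CPM on high-fat diet (n = 4) and 8.08 ± 13.997 CPM with STZ (n = 3) in islet macrophages, and 39.5 ± 21.8, 33.8 ± 10.6 and 53.2 ± 10.6 CPM in microglia (n = 4 each). When the peritoneal change was tested against the mean change of islet macrophages and microglia, none of the 10 genes passed in any contrast, against 12 of 17230 genes (0.0696%). Gata6 and Cyp26a1 had no usable standard error in that fit for the STZ contrast, since both are at or near 0 in the other populations, so whether their change differs between populations could not be fitted. Selp had none either.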

How the data were processed

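Macrophages and monocytes were sorted and their polyadenylated RNA sequenced by Smart-seq2, per the labels' protocols. The authors deposited raw counts per gene. Reads were trimmed with Trimmomatic 0.36, aligned with STAR 2.5.1a to mm10 and counted with featureCounts, per the submitters' processing notes. No annotation release, strand setting or rule for multimapping reads is given. Reads shared with near-identical or overlapping genes can therefore be split in an unknown way.

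Of 50686 identifiers 50376 matched a symbol in GENCODE M21, and the rest held 0.0438% of counts. Levels are CPM of the library total. Differences were fitted with edgeR 4.0.16 in R 4.3.3 (filterByExpr, TMM scaling, robust quasi-likelihood F test, cohort as a term), with Benjamini-Hochberg adjustment over all tested genes and a threshold of 0.05. Normal diet populations were compared without a cohort term, since microglia share no cohort with the others. DESeq2 1.42.0, limma 3.58.1 (voom with quality weights), no filter, library totals, other blocks and leaving out each library were the alternatives. Precision is limited by 7.92 to 34.5 M counts per library, and intervals on summed counts (95%) cover counting error only. Among 443 within-group pairs of libraries, 0 were identical. Only the peritoneal fits of refeeding and of STZ against normal diet were run on simulated counts. The simulation held no cohort effect, no library set apart and no group at 0, so it says nothing about those. Start regions are RefSeq windows on GRCm38.p6, examined for 6 of the 10 genes. The source held none for Prg4, Alox15 and Icam2, and that of Gata6 is not reported here.

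The 10 genes and the gene lists were chosen with earlier results of these data known. Of the other lists, genes with an adjusted p below 0.05 are named, up to 8 per comparison, with markers of other cells, chromosome neighbours and the 5 genes most like Gata6 and Rxra. In the diet peritoneal libraries the cohort is the replicate number: deviations of 13 same-numbered pairs correlated at a mean of 0.212 (9 above 0.1), against -0.0533 for 52 other pairs.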

Additional observations from a re-analysis of the deposited data

Results flagged for a closer look

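A library was singled out where its level lay far from all others of its group, relative to the range of the group, among 96 groups with a mean of at least 10 CPM. This picked 23 groups. The mean that admits a group includes the library singled out, so some groups entered through that library alone. Serpinb2 in refed monocytes, for example, had a mean of 12.7 CPM and a median of 0.567 CPM. No rate expected by chance was worked out for such groups.

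In peritoneal macrophages, Gata6 was 83.07 CPM in fasted library 7 (others 13.7 to 34.8) and 68.86 CPM in refed library 1 (others 15.2 to 35.6). Gata6 was also low in high-fat diet library 1, at 19.34 CPM (others 24.8 to 25.4). Cyp26a1 was 79.27 CPM in the same refed library 1 (others 5.14 to 32.03). Icam2 was 1921 CPM in normal diet library 3 (others 1034 to 1134), and Selp was 924.5 CPM in fasted library 6 (others 1100 to 1254).

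Several of the genes were high together in single libraries. Refed monocyte library 1 held 533.1 CPM of Prg4 (others at most 7.96), 424.5 CPM of Alox15 (others at most 5.56) and 110.7 CPM of Serpinb2 (others at most 1.27). Refed microglia library 5 held 222 CPM of Prg4 (others at most 8.70) and 247.7 CPM of Alox15 (others at most 38.6). Genes with a group mean below 10 CPM were outside the rule. Of these, the same monocyte library held 74.98 CPM of Selp (group median 0.101) and 10.1 CPM of Cyp26a1 (group median 0). The same microglia library held 61.03 CPM of Serpinb2 (group median 0.398) and 27.7 CPM of Selp (group median 0.0525). Gata6 was at most 0.0502 CPM in refed monocytes and 0.469 CPM in refed microglia. Refed colonic library 6 held 1028 CPM of Serpinb2 (others at most 286), 736.9 CPM of Alox15 (others at most 361) and 437.9 CPM of F5 (others at most 223). The cause was not tested.

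Prg4 was 60.67 CPM in fasted adipose library 7, 90.54 CPM in refed adipose library 4 and 73.54 CPM in fasted monocyte library 6. Icam2 was 46.43 CPM in fasted adipose library 5 and 71.68 CPM in refed microglia library 6, and F5 was 119.2 CPM in fasted monocyte library 3. Rxra was 106.3 CPM in refed colonic library 9 and 53.83 CPM in refed islet library 4, both the highest, and 62.08 CPM in fasted Kupffer library 8, the lowest.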

How the results depend on the processing

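Of the settings tried on counts of the 10 genes, 182 stayed within 1.5 times of the reported count and 26 moved. Settings with 0 in both counts are among the 182. Every diet fit of islet macrophages or microglia with a library left out was of that kind. The tally therefore says little about the peritoneal counts. For refeeding in peritoneal macrophages, where edgeR called 0, DESeq2 called 3, no filter 2 and voom 2, and leaving out a library gave 0 to 1. The replicate block in place of cohort gave 0 of the 10, and 0 of all genes against 49. No filter called 1 gene in adipose tissue macrophages (Serpinb2), and DESeq2 called 1 in colonic macrophages (Rarb). The difference in refeeding change gave 1 with DESeq2 (Cyp26a1) and 1 without a filter (Prg4). High-fat diet against normal diet gave 1 (Cyp26a1) with DESeq2, no filter or voom, and 0 to 1 when a library was left out. STZ against normal diet, with 2 called, gave 6 with DESeq2, 6 without a filter, 5 with voom, 1 with library totals, 1 to 2 when a library was left out and 2 with no replicate block. STZ against high-fat diet gave 1 with DESeq2, 3 without a filter and 1 with voom. The difference in diet change gave 1 (Prg4) without a filter. Over all genes, calls for refeeding were 339 with DESeq2, 312 without a filter and 184 with voom, and for STZ against normal diet 954, 710 and 832 against 171, and 110 with library totals. The causes were not tested.

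Sign changes, none of them of a called change, were as follows. Under refeeding, Gata6 was 0.07399 with the replicate block and -0.28 to 0.25 with a library left out, and Cyp26a1 was 0.01513 with no cohort term and -0.62 to 0.17. For high-fat diet against normal diet, Serpinb2 was 0.008205 without a filter, 0.10 with voom, 0.08725 with library totals, 0.0724 with no replicate block and -0.14 to 0.13 with a library left out. Prg4 was 0.02528 with library totals, 0.01202 with no replicate block and -0.21 to 0.07128. With a library left out Selp ran from -0.16 to 0.17, F5 from -0.25 to 0.007915 and Rarb from -0.12 to 0.35. For STZ, Rarb against normal diet was 0.05834 with library totals and -0.28 to 0.11, and against high-fat diet -0.35 to 0.03032. In refeeding, 7 same-numbered peritoneal pairs correlated at a mean of 0.0193 (0 above 0.1), so the numbers were not taken to pair libraries. Genes near 0 outside the peritoneum are limited by depth.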
